A study of Mus musculus with 12 samples.

Results

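The 7 genes described here, Gli1, Gli2, Gli3, Ptch1, Smo, Sufu and Hhip, are core components of the Hedgehog signalling pathway, and they were measured by RNA sequencing in the mouse hippocampus. They were listed by symbol and matched to the gene identifiers of the count table through the mouse annotation of GRCm38, which gave 7 of the 21532 genes in the table. All 7 passed the filter on low counts, as did 18382 genes in all. The 7 were chosen by name, with no threshold on a measured value, but with the fold changes and tests of these same libraries already known. Each difference below is therefore a description, and each adjusted p says where a gene stands in the test over the whole table and is not independent evidence for it.

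The 12 libraries came from C57BL/6 wild-type mice, 3 animals in each of 4 groups. The groups were stigmasterol at 6 h, vehicle at 6 h, stigmasterol at 1 h and vehicle at 1 h, with an intraperitoneal dose of 100 mg/kg. The title and agent labels name stigmasterol, a plant sterol, whereas the treatment protocol names beta-sitosterol, a related plant sterol. Sex, age, clock time of injection and the composition of the vehicle are not given, so the hours since injection and the time of day cannot be told apart. The replicate numbers ran from 1 to 11 at 1 h and from 12 to 23 at 6 h. What these numbers stand for is not given, and anything that follows their order cannot be told apart from the time either.

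Hedgehog ligands bind Ptch1, a receptor that otherwise holds the transducer Smo inactive at the primary cilium. Active Smo keeps Gli2 and Gli3 from being turned into transcriptional repressors, while Sufu binds Gli proteins and restrains them. Gli1, Ptch1 and Hhip are themselves target genes of the pathway, and in the adult mouse hippocampus Gli1 marks ligand-responding astrocytes and neural stem cells of the dentate gyrus.

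All 7 transcripts were detected in every library. Per kilobase of annotated exon, the level averaged over the 12 libraries was 5.12 ± 0.498 CPM (counts scaled by library size) for Ptch1 and 5.11 ± 0.650 CPM for Smo (SD, n = 12). Ptch1 was above Smo in only 8 of 12 libraries, so the order of these neighbours was within their spread. Sufu, the inhibitor of the Gli proteins, followed at 3.27 ± 0.221 CPM per kilobase and was below Smo in 12 of 12 libraries. The 3 Gli genes and Hhip lay lower. Gli3 averaged 1.62 ± 0.238 CPM per kilobase, Gli2 1.48 ± 0.249, Hhip 1.16 ± 0.215 and Gli1 0.978 ± 0.440 (SD, n = 12 each). Each of these 4 overlapped its neighbour in this order, since Gli3 was above Gli2 in 10 of 12 libraries, Gli2 above Hhip in 9 and Hhip above Gli1 in 9. Gli1 had the fewest reads, with 61 to 306 per library, against 1935 to 2963 for Ptch1. The SD of Gli1 within groups was 0.28 on the log2 CPM scale, and 74.6% of all tested genes had a smaller one.

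The main pattern among the 7 genes was a difference between the times. Gli1, the transcriptional activator, rose in the 6 h libraries, where its level was 2.28-fold that of the 1 h libraries, and Gli2, the main activator upstream of it, rose by a log2 fold change of 0.41. Ptch1 rose by 0.21. The other 4 genes did not pass the test, and none of the 7 passed it between stigmasterol and vehicle.

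Gli1 lies on the minus strand of chromosome 10 at 127329882 to 127341974 in GRCm38. It had 6.88, 7.29 and 5.02 CPM in the stigmasterol libraries at 6 h, and 3.10, 2.71 and 4.03 CPM in those at 1 h. The vehicle libraries had 5.97, 8.70 and 6.89 CPM at 6 h, and 2.90, 2.15 and 2.99 CPM at 1 h. Every 6 h library was above every 1 h library, whichever compound had been injected. The lowest value at 6 h was 5.02 CPM and the highest at 1 h was 4.03 CPM.

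Averaged over both injections, the log2 fold change of Gli1 at 6 h against 1 h was 1.19 ± 0.14 (SE; 95% interval 0.88 to 1.50), with a Benjamini-Hochberg adjusted p of 0.00212 in the edgeR quasi-likelihood fit over all genes. In this comparison 3 of the 7 genes were called at an adjusted p below 0.05, all higher, beside 7.97% of all tested genes called in either direction and 4.05% called higher. Gli1 ranked 13 by p among the 18382 tested genes and 37 from the top by log2 fold change. It stayed past the threshold in each of the 12 fits that left out 1 library, with log2 fold changes of 1.11 to 1.28.

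The time difference of Gli1 was also taken within each injection, between groups that the other comparison does not use. Both came from the same fit over all 12 libraries, so they share its scaling and its estimate of the spread. After vehicle, the log2 fold change was 1.42 ± 0.21 (SE), with an edgeR adjusted p of 0.0256, which ranked 8 by p. It was the 1 gene of the 7 called there, beside 0.675% of all tested genes. After stigmasterol, it was 0.96 ± 0.20, with an adjusted p of 0.170. None of the 7 was called after stigmasterol by edgeR, where 0.00544% of all tested genes were called, although 3 of the 7, beside 9.99% of all tested genes, had an unadjusted p below 0.05. DESeq2 called Gli1 after stigmasterol, with an adjusted p of 0.00413, and limma-voom called none of the 7. The call after vehicle was lost when any 1 of the 6 vehicle libraries was left out, with adjusted p values of 0.0674 to 0.139 and log2 fold changes of 1.26 to 1.54. The difference between both time effects was -0.46 ± 0.29, and its adjusted p was 1.00, so the smaller value after stigmasterol was not separated from the spread between animals.

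**Figure D1:**
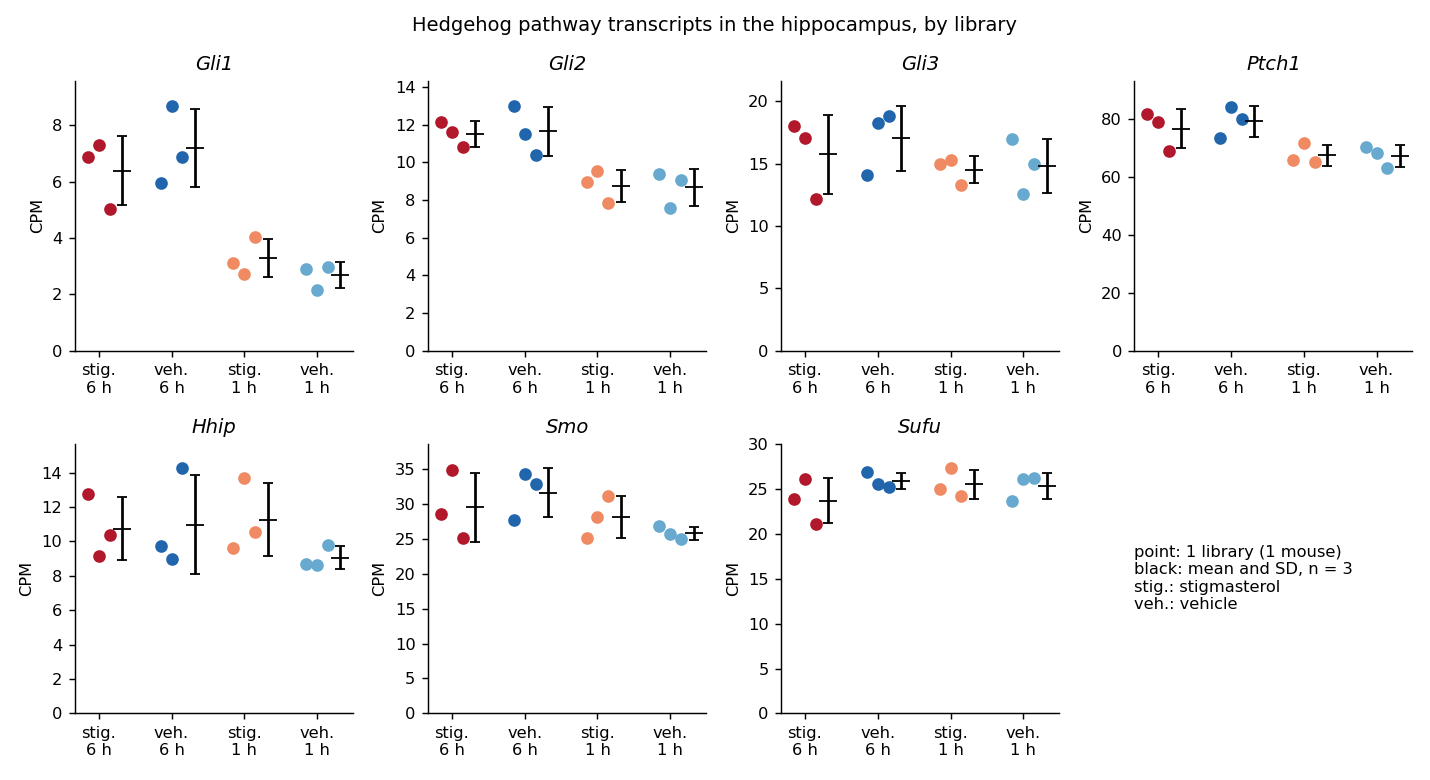
Level of each of the 7 genes in CPM (vertical axis, from 0) in every library, with the mean and SD of each group of 3 in black. The Gli1 points at 6 h start at 5.02 CPM and lie above all those at 1 h, which end at 4.03 CPM, and no panel separates stigmasterol from vehicle.

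Gli2 lies on the minus strand of chromosome 1 at 118834132 to 119053619. It had 12.1, 11.6 and 10.8 CPM in the stigmasterol libraries at 6 h, and 8.93, 9.52 and 7.85 CPM at 1 h. After vehicle it had 13, 11.5 and 10.4 CPM at 6 h, and 9.38, 7.57 and 9.05 CPM at 1 h. As with Gli1, the 6 libraries at 6 h did not overlap the 6 at 1 h. Over all tested genes, 4.44% showed no overlap between the times and 2.03% showed none with 6 h higher, and Gli1 and Gli2 were the 2 of the 7 that did.

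Averaged over both injections, the log2 fold change of Gli2 was 0.41 ± 0.085 (SE), with an edgeR adjusted p of 0.0202. It was 0.39 ± 0.12 after stigmasterol and 0.43 ± 0.12 after vehicle, neither past the threshold, with edgeR adjusted p values of 0.338 and 0.0908. The averaged call was lost without the vehicle library 5 at 1 h, with an adjusted p of 0.0537, and without the vehicle library 14 at 6 h, with 0.0510.

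Gli3, which acts mainly as a repressor, lies on the plus strand of chromosome 13 at 15463235 to 15730026. It had 18.0, 17.1 and 12.1 CPM in the stigmasterol libraries at 6 h, and 15, 15.3 and 13.3 CPM at 1 h. After vehicle it had 14.1, 18.2 and 18.9 CPM at 6 h, and 16.9, 12.6 and 14.9 CPM at 1 h. The groups overlapped in both comparisons. Its log2 fold change averaged over both injections was 0.16 ± 0.11 (SE; 95% interval -0.09 to 0.40), with an edgeR adjusted p of 0.398.

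Ptch1, the ligand receptor, lies on the minus strand of chromosome 13 at 63508328 to 63573598. It had 81.8, 79.0 and 69.0 CPM in the stigmasterol libraries at 6 h, and 65.7, 71.6 and 65.2 CPM at 1 h. Its vehicle libraries had 73.5, 84.3 and 79.8 CPM at 6 h, and 70.4, 68.1 and 63.0 CPM at 1 h. The times did not overlap after vehicle but did after stigmasterol, where 1 library at 6 h, replicate 23, was within the 1 h range. The averaged log2 fold change was 0.21 ± 0.058 (SE), with an edgeR adjusted p of 0.0453. This call was held in 2 of the 12 fits that left out 1 library, those without the stigmasterol library 8 at 1 h and without the stigmasterol library 23 at 6 h. In the other 10 the adjusted p reached 0.116, while the log2 fold change stayed between 0.18 and 0.24 over all 12.

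Sequences upstream of a start site were read for Gli2 and Ptch1, because these are the called genes with a window in the promoter table made from RefSeq (build GRCm38.p6). Of the 7 genes, 6 had a window, and Gli1 had none. The 250 bases before the start are written 5′ to 3′ on the strand of the gene, at chr1:119053620-119053869 for Gli2 and chr13:63565736-63565985 for Ptch1, both on the minus strand. The Ptch1 window lies before the start that the table uses, which is an internal one within the span given above and not the outermost annotated start. Capitals mark the core of the Gli binding motif, read on either strand.

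Gli2: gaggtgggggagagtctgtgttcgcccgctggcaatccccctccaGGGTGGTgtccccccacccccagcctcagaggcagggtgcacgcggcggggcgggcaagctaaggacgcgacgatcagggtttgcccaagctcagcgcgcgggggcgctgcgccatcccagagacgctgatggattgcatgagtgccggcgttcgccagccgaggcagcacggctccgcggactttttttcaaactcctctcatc
Ptch1: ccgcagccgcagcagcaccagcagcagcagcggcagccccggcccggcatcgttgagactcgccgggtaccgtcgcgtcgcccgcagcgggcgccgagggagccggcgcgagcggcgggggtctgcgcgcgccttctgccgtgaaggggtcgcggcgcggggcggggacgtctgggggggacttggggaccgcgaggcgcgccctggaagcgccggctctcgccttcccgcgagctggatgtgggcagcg

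The Gli consensus GACCACCCA, searched on both strands, was in 0 of the 6 windows and in 0.225% of the 32851 windows of the same length in the table. Its core ACCACCC, a shorter stretch searched after the whole consensus gave no match, was in 1 of the 6, the Gli2 window, and in 3.92% of all windows. The match in Gli2 is on the opposite strand and begins 205 bases before the start. The Ptch1 window held no match, which says only that these letters are not within these 250 bases. It was rich in CG dinucleotides, with 41, against 22 in the Gli2 window and a median of 6 over all windows, and its GC content was 78.4%, against 67.2% in the Gli2 window and a median of 52.4%.

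Hhip encodes a membrane protein that binds Hedgehog ligands and limits them, and it lies on the minus strand of chromosome 8 at 79965851 to 80058006. It had 12.7, 9.14 and 10.4 CPM in the stigmasterol libraries at 6 h, and 9.62, 13.7 and 10.5 CPM at 1 h. In vehicle libraries it had 9.71, 8.96 and 14.2 CPM at 6 h, and 8.69, 8.63 and 9.81 CPM at 1 h. Single libraries stood high in 3 of the groups and the groups overlapped throughout. These were stigmasterol library 8 at 1 h, stigmasterol library 13 at 6 h and vehicle library 21 at 6 h. Each was also the highest of its group for summed oligodendrocyte markers, at 14846, 11107 and 11242 CPM. In vehicle at 1 h the highest library for Hhip was not the highest for these markers. The part of oligodendrocyte RNA in the Hhip values was not tested. Although Hhip, like Gli1 and Ptch1, is a target gene of the pathway, its averaged time difference was 0.10 ± 0.13 (SE; 95% interval -0.18 to 0.39), with an edgeR adjusted p of 0.656.

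Smo lies on the plus strand of chromosome 6 at 29735503 to 29761365. It had 28.5, 34.8 and 25.1 CPM in the stigmasterol libraries at 6 h, and 25.1, 28.1 and 31.1 CPM at 1 h. After vehicle it had 27.7, 34.3 and 32.8 CPM at 6 h, and 26.8, 25.7 and 24.9 CPM at 1 h. The times did not overlap after vehicle and overlapped after stigmasterol. Its averaged log2 fold change was 0.18 ± 0.087 (SE), with an edgeR adjusted p of 0.202. With Smo, 4 of the 7 genes had times that did not overlap after vehicle, all higher at 6 h, beside 15.9% of all tested genes that did so with 6 h higher. After stigmasterol these were 2 of the 7, Gli1 and Gli2, beside 6.91%.

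Sufu lies on the plus strand of chromosome 19 at 46396896 to 46488804. It had 23.9, 26.1 and 21.2 CPM in the stigmasterol libraries at 6 h, and 25.0, 27.3 and 24.3 CPM at 1 h. The vehicle values were 27.0, 25.6 and 25.3 CPM at 6 h, and 23.7, 26.2 and 26.2 CPM at 1 h. The times overlapped after both injections. The averaged log2 fold change was -0.04 ± 0.064 (SE; 95% interval -0.17 to 0.10), with an edgeR adjusted p of 0.754. With trends on GC content and length removed, it was called lower at 6 h, at -0.15 with an adjusted p of 0.0353.

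**Figure D2:**
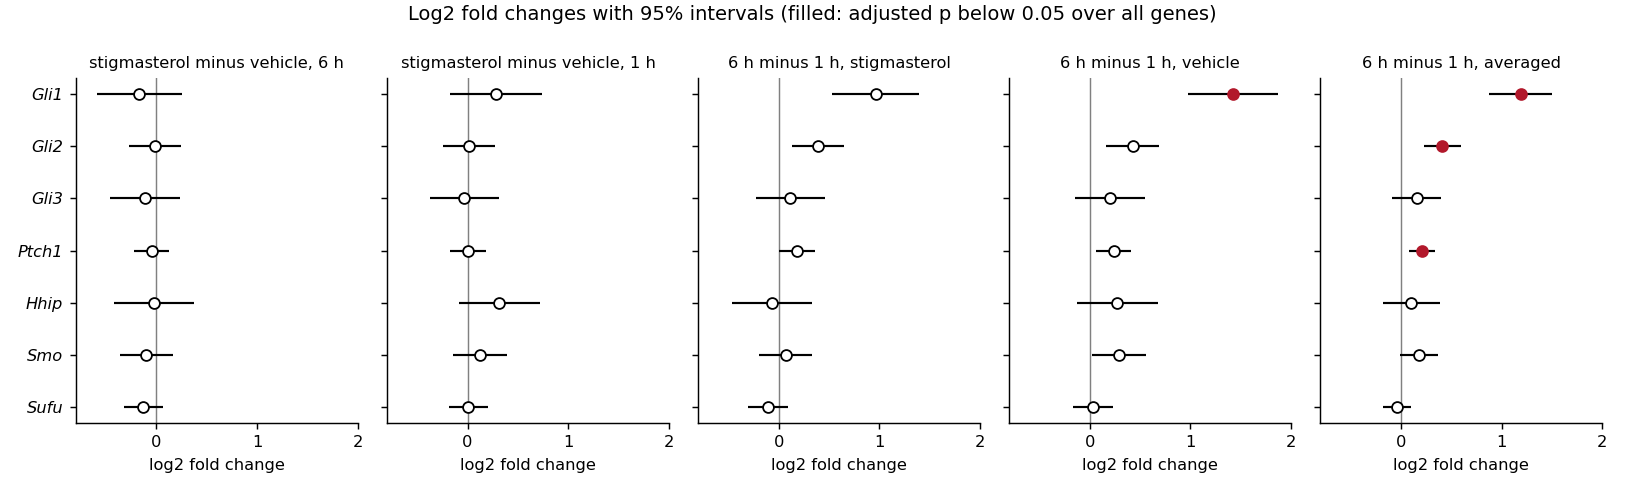
Log2 fold changes (horizontal axis) of the 7 genes with 95% intervals in 5 comparisons, filled where the adjusted p over all genes was below 0.05. The intervals of both stigmasterol comparisons cross 0 for all 7 genes, whereas Gli1 lies at 1.19 in the averaged time comparison.

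Gli1 had a larger log2 fold change between the times than the other 6 genes, and its reads were set against theirs within each library, which removes the scaling between libraries. Per 100 Ptch1 reads there were 7.27 to 10.3 Gli1 reads in the 6 libraries at 6 h, against 3.15 to 6.18 in the 6 at 1 h. Per 100 Smo reads there were 20.0 to 25.4 at 6 h, against 8.34 to 12.9 at 1 h. The times did not overlap for either ratio, nor for the ratios to Gli3, Sufu and Hhip. Against Gli2 they did overlap, with 45.9 to 75.6 Gli1 reads per 100 Gli2 reads at 6 h, against 28.4 to 51.3 at 1 h. The 1 h library in that overlap was the stigmasterol replicate with 4.03 CPM of Gli1. A ratio of this kind shows that the genes differed by unequal amounts, not that either was constant. All the ratios share the Gli1 reads, which separate the times by themselves, so they are not independent observations.

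**Figure D3:**
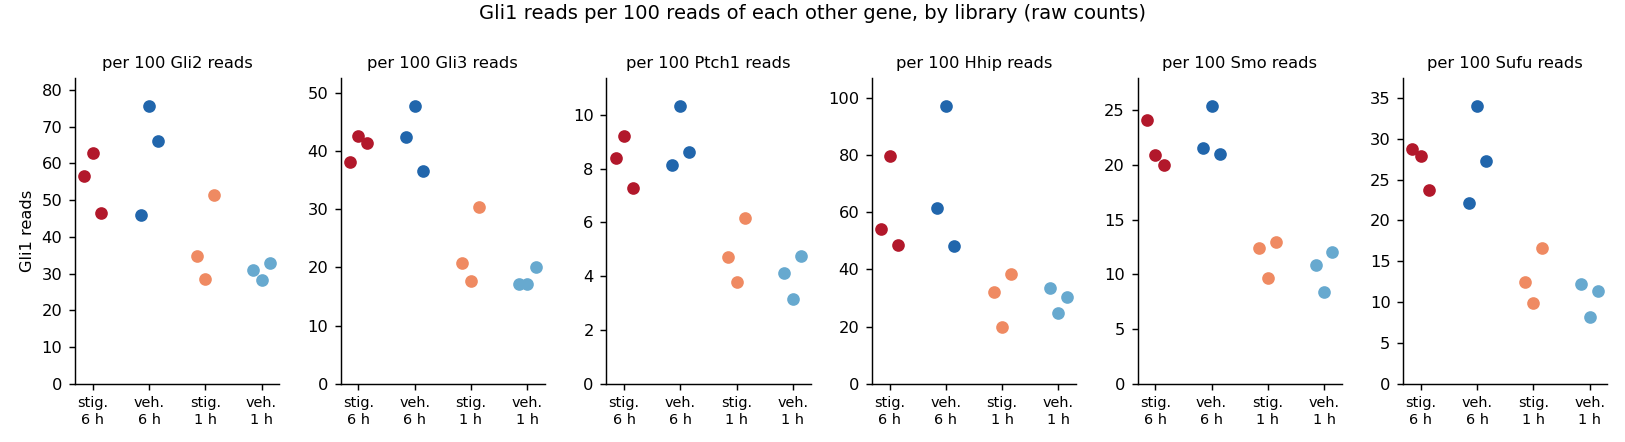
Gli1 reads per 100 raw reads of each other gene (vertical axes, from 0) in every library of the 4 groups. The 6 h libraries lie above the 1 h libraries in 5 of the 6 panels, and in the Gli2 panel 1 stigmasterol library at 1 h, at 51.3, lies among those at 6 h.

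Stigmasterol was compared with vehicle at each time. At 6 h, all 7 genes had values below 0 and none was called, beside 0 of the tested genes called by edgeR in all. No member had an unadjusted p below 0.05, beside 4.1% of all tested genes, and the median log2 fold change of the 7 was -0.10, against 0.00 over all tested genes. Gli1 averaged 6.40 ± 1.21 CPM after stigmasterol and 7.19 ± 1.39 CPM after vehicle (SD, n = 3 each), a log2 fold change of -0.17 with a 95% interval of -0.59 to 0.25. With 1 library left out it ran over -0.29 to -0.0066, the value nearest to 0 being that without the vehicle library 14. Sufu had the smallest p of the 7, with -0.13 ± 0.091 (SE) and an edgeR adjusted p of 1.00, and it ran over -0.20 to -0.05 with 1 library left out, nearest to 0 without the stigmasterol library 23. Replicate 23 was the lowest of the 3 stigmasterol libraries at 6 h for 6 of the 7 genes, all except Hhip.

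At 1 h, 6 of the 7 values were above 0, with a median of 0.02 against -0.0013 over all tested genes, and again none of the 7 was called. No member had an unadjusted p below 0.05, beside 7.52% of all tested genes. Hhip averaged 11.3 ± 2.13 CPM after stigmasterol and 9.04 ± 0.666 CPM after vehicle, a log2 fold change of 0.32 with a 95% interval of -0.08 to 0.72. Gli1 averaged 3.28 ± 0.677 CPM after stigmasterol and 2.68 ± 0.460 CPM after vehicle (SD, n = 3 each), a log2 fold change of 0.29 with an interval of -0.17 to 0.74. With 1 library left out, Hhip ran over 0.15 to 0.43, the lowest without the stigmasterol library 8, and Gli1 over 0.13 to 0.41, the lowest without the stigmasterol library 11. The 8 striatum markers summed to 362 CPM in the stigmasterol library 8, and to 111 and 117 CPM in the other two stigmasterol libraries at 1 h. In this comparison 10 of 10 choroid plexus markers were above 0, with a median of 1.51, 8 of 8 striatum markers, with 1.09, and 10 of 10 oligodendrocyte markers, with 0.49. Meningeal fibroblast markers were above 0 in 8 of 8, with a median of 0.69, and ependyma markers in 7 of 7, with 0.40. Dentate granule cell markers were above 0 in 1 of 6, with -0.31, and pyramidal cell markers in 2 of 7, with -0.14. The meningeal fibroblast markers summed to 238 CPM in the stigmasterol library 11, 144 in library 1 and 115 in library 8. The vehicle libraries at 1 h had 111 to 114 CPM. No marker of these lists was called by edgeR. The part of striatum, oligodendrocyte, meningeal fibroblast and ependyma RNA in the values of Hhip and Gli1 was not tested. Apart from the fits with 1 library left out, 11 alternatives were run for this comparison. They included choroid plexus marker content as a covariate and a fit without the vehicle libraries 4 and 9 at 1 h. Over these 11, Gli1 ran from 0.15 to 0.61 and Hhip from 0.29 to 0.42. Gli2, Gli3, Ptch1 and Sufu lay between -0.03 and 0.02, and Smo was at 0.12. Stigmasterol and vehicle overlapped for all 7 genes at both times, whereas 15.8% of all tested genes at 1 h and 8.22% at 6 h did not overlap.

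DESeq2 and limma-voom also called none of the 7 in either stigmasterol comparison, and DESeq2 called 20 genes in all at 1 h and 2 at 6 h. These intervals do not show that stigmasterol leaves the genes alone. They are widest for Gli1, where a log2 difference of 0.74 at 1 h lies within them, and narrowest for Ptch1, where they run from -0.17 to 0.18 at 1 h and from -0.22 to 0.13 at 6 h.

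The rest of the pathway was described from a list of 48 genes in 7 groups by role, of which 46 passed the filter on low counts. In the averaged time comparison 5 of these were called, 2 higher and 3 lower, beside 7.97% of all tested genes. Their median log2 fold change was 0.08, against 0.00 over all tested genes. No gene of the 46 was called in the stigmasterol comparisons or in the time comparison within either injection by edgeR. An unadjusted p below 0.05 was reached at 6 h by 3 of the 46 with stigmasterol higher and 2 with it lower, beside 4.1% of all tested genes in either direction, and at 1 h by 2 and 1, beside 7.52%.

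The ligands were near the limit of detection. Shh had 16 to 35 reads per library, at 0.498 to 0.886 CPM, and its averaged time difference was -0.08 ± 0.18 (SE), with an edgeR adjusted p of 0.825. Ihh, with 4 to 14 reads, and Dhh, with 3 to 17 reads, did not pass the filter. Of the genes that release ligands, Disp1, the exporter of lipid-bearing ligand, was at 0.17 ± 0.099, and Scube3 at 0.33 ± 0.21, neither called. The ligand-binding co-receptors Cdon, Gas1 and Boc were at 0.20 ± 0.067, 0.20 ± 0.10 and -0.07 ± 0.077, and Cdon was nearest to the threshold, with an edgeR adjusted p of 0.0790. Lrp2, a large endocytic receptor that takes up Shh, was at 0.24 ± 0.18.

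Kif7, a kinesin of the cilium tip that organises Gli proteins, averaged 5.33 CPM at 6 h and 4.0 CPM at 1 h, a log2 fold change of 0.42 ± 0.11 (SE; edgeR adjusted p 0.0387). Iqce, which anchors the Evc complex next to Smo in the cilium, rose by 0.22 ± 0.047, with an adjusted p of 0.0215. Prkacb, a catalytic subunit of the protein kinase A that phosphorylates Gli2 and Gli3, fell by 0.18 ± 0.047, with an adjusted p of 0.0393. Spop, the adaptor of a ubiquitin ligase that acts on Gli2 and Gli3, fell by 0.24 ± 0.064, with an adjusted p of 0.0424. Ccnd2, the cell cycle gene cyclin D2 and a target of the pathway, fell by 0.31 ± 0.065, with an adjusted p of 0.0208. Of the 8 target genes outside the 7, 1 was called, Ccnd2, beside 7.97% of all tested genes, while 6 of the 8 were above 0, with a median of 0.11 and a highest value of 0.50.

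**Figure D4:**
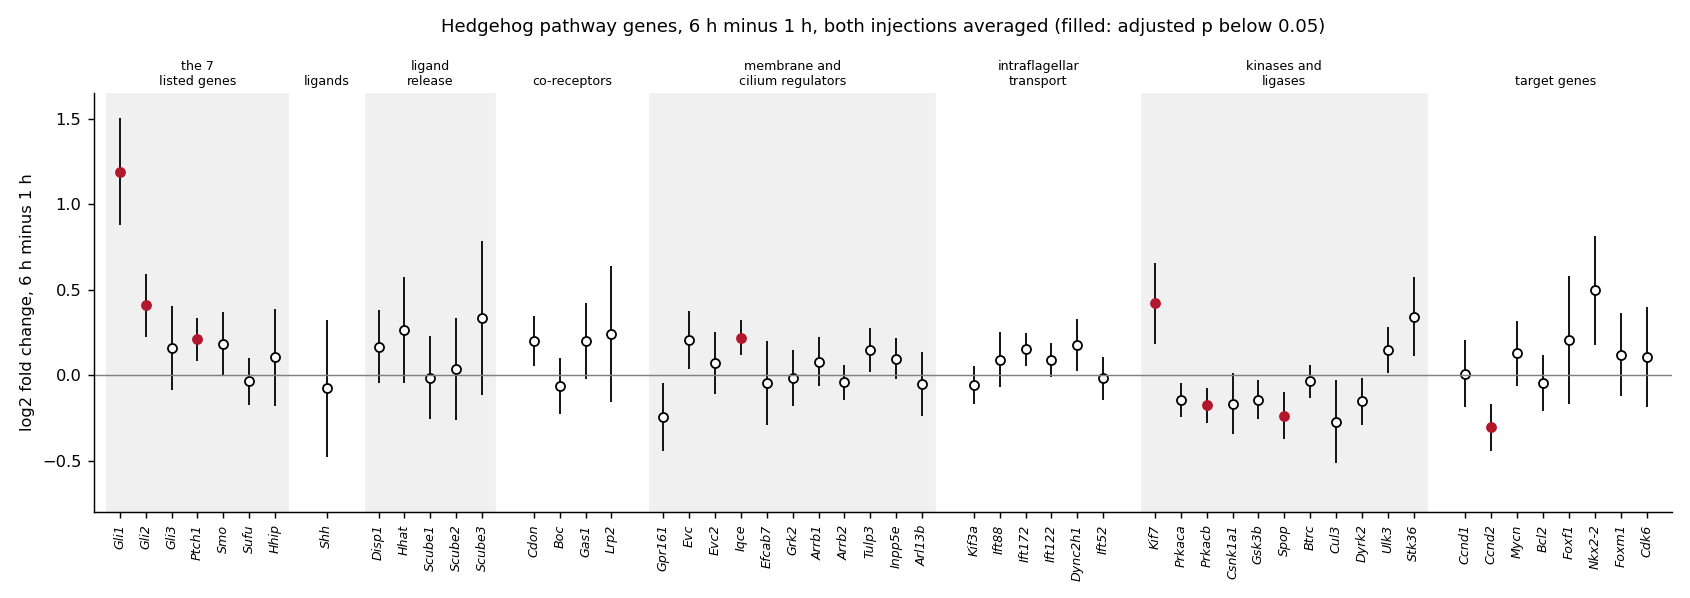
Log2 fold change with 95% interval (vertical axis) of the 7 genes and of 46 other pathway genes by role, 6 h minus 1 h, averaged over both injections. Gli1, at 1.19, stands above the others, and the filled points are the 3 called of the 7 and the 5 called of the 46.

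In the stigmasterol comparisons, 3 of the 8 target genes were above 0 at 6 h, with a median of -0.05, and 7 of 8 at 1 h, with a median of 0.14. Those 3 at 6 h each had an unadjusted p below 0.05 in the edgeR fit, beside 4.1% of all tested genes. At 1 h, 2 of the 8 did, both higher, beside 7.52%. Scube3, of the ligand release group, was at -0.18 at 6 h and 0.60 at 1 h, uncalled. Nkx2-2, a homeobox gene also expressed in the oligodendrocyte lineage, averaged 3.37 ± 0.579 CPM after stigmasterol and 2.25 ± 0.370 CPM after vehicle at 6 h, and 2.57 ± 0.481 CPM after stigmasterol and 1.48 ± 0.287 CPM after vehicle at 1 h (SD, n = 3 each). Its log2 fold changes were 0.58 at 6 h and 0.79 at 1 h, but the edgeR adjusted p values were 1.00 and 0.649. Stigmasterol did not overlap vehicle at either time, beside 8.22% of all tested genes without overlap at 6 h and 15.8% at 1 h. Oligodendrocyte markers moved with Nkx2-2, with 10 of 10 above 0 at both times, medians of 0.25 at 6 h and 0.49 at 1 h and 0 called. Their part in the Nkx2-2 values was not tested. Foxf1, with group means of 0.586 to 1.09 CPM, was at 0.58 at 6 h and 0.77 at 1 h, also uncalled. Its stigmasterol libraries, too, did not overlap its vehicle libraries at either time.

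The genes whose log2 CPM followed Gli1 most closely over the 12 libraries, among 13497 genes of at least 1 CPM, were Ankrd24, Idua, Cep164, Hook2 and Vsig10l. Their Pearson r with Gli1 was 0.94 to 0.97 and their Spearman rho 0.87 to 0.92, and without the 2 libraries farthest from the median of Gli1 r was 0.91 to 0.97. Both genes of a pair share the time group and the depth of each library, so r takes in the difference between the times. All 5 were called higher at 6 h in the averaged comparison, beside 4.05% of all tested genes. Their log2 fold changes were 0.30 to 0.51, less than that of Gli1. They were picked for following Gli1, which was itself higher at 6 h, so these calls are not separate evidence. The 5 nearest to Gli2 were Pcnt, Slc25a47, Ctdsp2, Acox3 and Farp1, with r of 0.92 to 0.94, and those nearest to Ptch1 were Kif1a, Kif21b, Rgp1, Bahcc1 and Garem2, with r of 0.91 to 0.93. Hhip was followed by Anln, Npc1, Sema6a, Prr5l and Cers2, with r of 0.89 to 0.90, Smo by Fpgs, Cand2, Dlec1, Sdk1 and Myh7, Gli3 by Abcc6, Pld2, Arap3, Arnt2 and Csf1, and Sufu by H2-M3, Med15, Hid1, Ripor1 and Zbtb24. For Sufu r dropped to between 0.60 and 0.82 without the 2 farthest libraries, against 0.86 to 0.93 with all 12. No gene was among the 5 of more than 1 of the 7.

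Around Gli1, 9 other tested genes lie within 100 kb. Of these, Mbd6 was called in the averaged time comparison and the other 8 were not, beside 7.97% of all tested genes called. Mbd6 had a log2 fold change of 0.45 ± 0.082 (SE) and an edgeR adjusted p of 0.0142. Arhgap9, on the opposite strand, shares 62 exonic bases with Gli1 and averaged 1.13 CPM. Its time difference was 0.35 ± 0.20, with an adjusted p of 0.281. An antisense transcript shares 265 exonic bases with Gli1 and was not analysed here, and since the strandedness of the libraries is not given, reads from the shared bases cannot be told apart. Gli3 shares 188 exonic bases in the same way with the opposite-strand transcript Gm6556. Hhip shares 175 with the opposite-strand transcript Gm27820, which was not analysed here.

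Library totals ran from 27613253 to 42043875 reads, and the stigmasterol libraries at 1 h were the deepest, at 38117958 or more. In bulk tissue, fewer cells of a type and less RNA per cell cannot be told apart. The markers of dentate granule cells and pyramidal cells, the principal neurons of the hippocampus, were present, and no marker of the 15 lists of cell types and neighbouring tissues was at 0 in any library. Of the 10 astrocyte markers, 2 were called higher in the averaged time comparison, beside 4.05% of all tested genes. The median log2 fold change of the 10 was 0.11, against 1.19 for Gli1. Their summed level was 7554 to 8701 CPM in the stigmasterol and 7606 to 8318 CPM in the vehicle libraries at 6 h, against 7108 to 7714 CPM and 7036 to 9132 CPM at 1 h. None of 10 neural progenitor markers was called by edgeR, with a median of 0.02. Markers called lower in the same comparison were 2 of 6 for dentate granule cells, 2 of 7 for pyramidal cells and 1 of 8 for interneurons. Those called higher were 2 of 6 for oligodendrocyte precursors, with a median of 0.16, 1 of 6 for endothelium, 1 of 6 for pericytes and smooth muscle and 1 of 8 for thalamus. Beside these counts, 7.97% of all tested genes were called in either direction and 4.05% were called higher. Striatum markers had a median of -0.42 in this comparison, with 1 of 8 above 0 and none called. Their median was -0.88 after stigmasterol and 0.05 after vehicle. None of 8 meningeal fibroblast markers was called by edgeR in the averaged comparison, with 7 of 8 above 0. None of the 10 of choroid plexus, tissue next to the hippocampus, was called, with 10 of 10 above 0 and a median of 0.28. Both lists had opposite signs within the injections. The choroid plexus median was 1.204 after vehicle, with 10 of 10 above 0. It was -0.636 after stigmasterol, with 0 of 10 above 0. The meningeal fibroblast median was 0.710 after vehicle and -0.207 after stigmasterol, with 7 of 8 and 0 of 8 above 0. Apart from the fits given next, the part of these markers in the values of the 7 genes was not tested. The 10 choroid plexus markers summed to 444 to 4541 CPM in the stigmasterol and 821 to 4089 CPM in the vehicle libraries at 6 h, against 1975 to 4916 CPM and 66.4 to 2870 CPM at 1 h. With the astrocyte score as a covariate, the averaged log2 fold change of Gli1 was 1.18 with an adjusted p of 0.0142, and with the choroid plexus score 1.21 with 0.00329. Gli2 lost its call with the astrocyte score, with 0.40 and an adjusted p of 0.0523. Without the vehicle libraries 4 and 9 at 1 h, which hold little choroid plexus RNA, Gli1 was at 1.36 with an adjusted p of 0.0430, and Gli2 at 0.51 with 0.0987. The call of Gli1 after vehicle was lost with the choroid plexus score, at 1.49 with an adjusted p of 0.124, and without these libraries, at 1.75 with 0.414. Ptch1 lost its averaged call in all 3 of these fits, with adjusted p values of 0.0716 to 0.235.

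**Figure D5:**
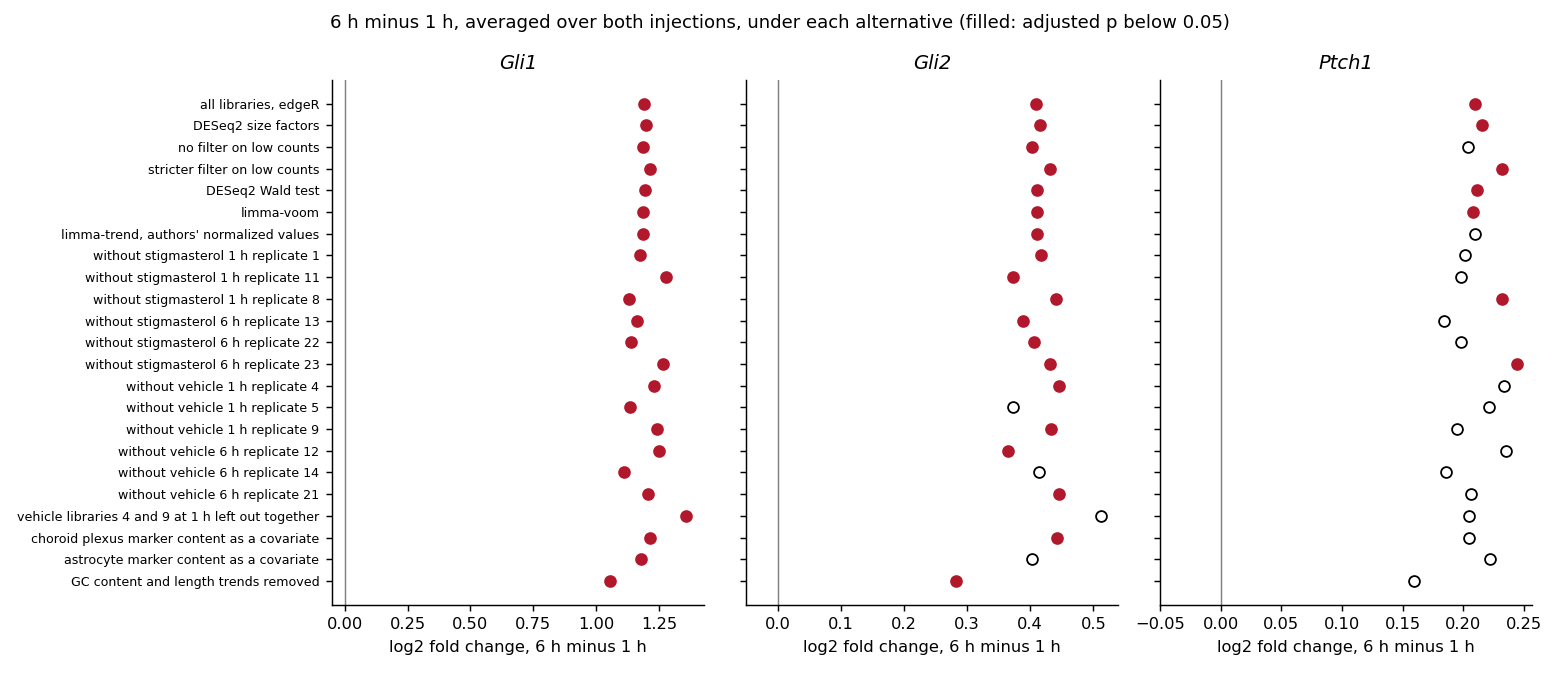
Averaged log2 fold change, 6 h minus 1 h (horizontal axes), of Gli1, Gli2 and Ptch1 under each alternative and with each library left out, filled where the adjusted p was below 0.05. Gli1 is filled throughout, between 1.06 and 1.36, and Ptch1 is mostly unfilled.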

How the data were processed

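RNA of the hippocampus was sequenced in 12 libraries, and per the labels' protocols total RNA with a RIN of at least 7 went into TruSeq mRNA libraries. GRCm38, the counter HTSeq 0.6.1p1 and the aligner STAR 2.4.2a are named, beside cutadapt, per the submitters' processing notes. The authors deposited raw counts per gene, whose totals set the precision, and a signal table of the same counts divided by 1 size factor per library, used in an alternative. The counts were fitted here in 1 model of the 4 groups over all 12 libraries, with edgeR 4.0.16 in R 4.3.3 (filterByExpr, TMM, quasi-likelihood F test, Benjamini-Hochberg over 18382 genes, threshold 0.05). CPM use TMM library sizes, levels per kilobase the union of GENCODE M21 exons, and 95% intervals 2.16 SE. Names were matched for 21495 of 21532 identifiers. The fit was tried on counts simulated from its own estimates of spread, for the averaged time comparison only. The simulated counts held no differences in tissue content. The 7 genes, the pathway lists and the markers were chosen with earlier results of these data known. Named were all 7, the ligands and co-receptors, the called genes and the 2 of smallest p per group and comparison (given where the text turns on them), and the 5 genes of highest r. No pair of libraries was identical, and 1 pathway gene is not reported here. DESeq2 1.42.0, limma 3.58.1, other filters and scalings, covariates and left-out libraries were alternatives.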

Additional observations from a re-analysis of the deposited data

How the results depend on the processing

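Of 952 alternative values of the 7 genes, 874 kept their direction and their side of the threshold, 28 lost a call, 3 gained one and 47 changed sign, and all of the last were uncalled. Gli1 kept its averaged time call in every alternative run. Gli2 kept it in 10 of 12 fits without 1 library and Ptch1 in 2. Most of the 952 values were uncalled from the start. A call could be lost only for Gli1 after vehicle and for the averaged values of Gli1, Gli2 and Ptch1. Gained calls were Gli1 after stigmasterol (0.97) and Gli2 after vehicle (0.43), both with DESeq2, and Sufu (-0.15) with GC and length trends removed. The cause of these moves was not tested. No paired analysis was possible because the groups share no replicate numbers.

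Counts of called genes moved more. For time after vehicle, 124 genes became 276 with a stricter filter, 1148 with DESeq2, 0 without the vehicle libraries 4 and 9 at 1 h, 0 with the choroid plexus and 74 with the astrocyte covariate, 757 with GC and length trends removed, and 1771 with only these groups fitted. The split of higher against lower was 85 to 39, and 255 to 502 with those trends removed. For the averaged time comparison, 1465 became 2295 with DESeq2, 31 without the vehicle libraries 4 and 9, 564 with the astrocyte covariate and 2271 with the trends removed. For time after stigmasterol, 1 became 0 with the stricter filter, 90 with DESeq2, 0 with the astrocyte covariate, 9 with the trends removed and 0 with only these groups. For stigmasterol against vehicle, 0 became 20 at 1 h and 2 at 6 h with DESeq2, and averaged over both times 106 with DESeq2, 3 with no filter and 7 with the astrocyte covariate. With 1 library left out, these counts ran over 0 to 582 after vehicle, 244 to 2738 averaged, 0 to 5 after stigmasterol and 0 to 26 for the averaged effect of stigmasterol.

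Sign changes were as follows, as log2 fold changes. For stigmasterol at 1 h, Gli3, Ptch1 and Sufu were at 0.21, -0.013 and -0.034 without the vehicle libraries 4 and 9 and at 0.051, -0.017 and -0.081 with the choroid plexus covariate, and Gli2 and Sufu at -0.098 and -0.066 with the trends removed. At 6 h, Hhip was at 0.0062 with limma-voom, and Ptch1 and Hhip at 0.022 and 0.049 with the trends removed, where the Gli2 difference of effects was 0.093 and Smo after stigmasterol -0.0010. Sufu after vehicle was at -0.0083 without the vehicle libraries 4 and 9, -0.043 with the choroid plexus covariate and -0.13 with the trends removed, and its averaged time value was 0.031 with the astrocyte covariate. Without 1 library, stigmasterol at 1 h ran over -0.072 to 0.10 for Gli2, -0.14 to 0.076 for Gli3, -0.038 to 0.045 for Ptch1 and -0.043 to 0.057 for Sufu. At 6 h it ran over -0.090 to 0.070 for Gli2, -0.24 to 0.043 for Gli3, -0.16 to 0.20 for Hhip, -0.098 to 0.023 for Ptch1 and -0.24 to 0.0037 for Smo. The difference of effects ran over -0.11 to 0.058 for Gli2, -0.21 to 0.074 for Gli3 and -0.11 to 0.016 for Ptch1. Time after stigmasterol ran over -0.21 to 0.094 for Hhip and -0.069 to 0.17 for Smo, after vehicle over -0.010 to 0.063 for Sufu, and averaged over -0.012 to 0.18 for Hhip and -0.074 to 0.00075 for Sufu. Without the vehicle libraries 4 and 9, the 1 left in that group is assumed to vary like the others.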
